A study of Mus musculus with 6 samples.

Results

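The enzymes that write, copy and remove DNA methylation were followed in P19, a line of mouse embryonal carcinoma cells that turns neural when aggregated with retinoic acid. The set comprised Dnmt1, Dnmt3a, Dnmt3b, Dnmt3l, Tet1, Tet2, Tet3, Uhrf1 and Tdg, and its members were found by the symbol of the RefSeq accession that the array files give for each non-control probe. Of these 9 listed genes, 7 had a probe (12 probes in all, of 24844 probes for 17178 genes on the array). Tet1 and Tet3 are not analysed here. All 12 probes lay well above background on 6 of 6 arrays.

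A line expressing AICD, the intracellular domain of the amyloid precursor protein, was compared with a line carrying the empty pCDNA vector (the vector line), both made in P19 cells. Each line was sampled undifferentiated, aggregated (4 days, all-trans retinoic acid in the medium) and differentiated (replated and kept for 2 days more, on culture-grade or poly-L-lysine coated surfaces), so that the groups were AICD undifferentiated, AICD aggregated, AICD differentiated, vector undifferentiated, vector aggregated and vector differentiated cells. Each group had 1 single-colour array of total RNA, 6 arrays in all, with no replicate within a line and state. The labels speak of lines without saying how many clones stood behind each array, and nothing in them says that the RNAs came from separate cultures.

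Methyl groups on the cytosine of CpG dinucleotides are set on unmethylated DNA by Dnmt3a and Dnmt3b, the de novo methyltransferases, with the help of Dnmt3l, a related protein that has no catalytic activity of its own. After replication, Uhrf1 recognises the hemimethylated CpG and Dnmt1 methylates the new strand. The Tet enzymes oxidise 5-methylcytosine, and Tdg, thymine DNA glycosylase, removes oxidised products so that base excision repair can restore cytosine. Dnmt3b and Dnmt3l are known to be abundant in pluripotent cells and to fall when these cells differentiate. The arrays measured transcripts of these genes, not methylation.

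Promoter sequences are shown for the member with the largest decrease over the course (Dnmt3b), for the de novo cofactor that fell with it (Dnmt3l) and for the only member called higher over the course in the main setting (Tet2). Each is the 250 bases before a RefSeq transcription start in GRCm38.p6, written 5′ to 3′ on the gene's strand, with every CpG in capitals. Dnmt3b lies at chr2:153649199-153649448 on the plus strand, Dnmt3l at chr10:78042037-78042286 on the plus strand (the first of its RefSeq starts), and Tet2 at chr3:133544391-133544640 on the minus strand.
Dnmt3b: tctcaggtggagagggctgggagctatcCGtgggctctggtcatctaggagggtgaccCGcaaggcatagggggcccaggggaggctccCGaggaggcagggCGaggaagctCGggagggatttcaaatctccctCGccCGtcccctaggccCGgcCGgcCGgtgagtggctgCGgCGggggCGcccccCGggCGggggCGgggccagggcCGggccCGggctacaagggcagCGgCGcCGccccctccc
Dnmt3l: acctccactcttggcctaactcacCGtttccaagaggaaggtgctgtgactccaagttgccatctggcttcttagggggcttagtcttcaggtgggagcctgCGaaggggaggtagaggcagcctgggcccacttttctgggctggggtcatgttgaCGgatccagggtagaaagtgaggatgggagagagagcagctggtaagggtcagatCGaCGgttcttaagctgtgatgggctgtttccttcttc
Tet2: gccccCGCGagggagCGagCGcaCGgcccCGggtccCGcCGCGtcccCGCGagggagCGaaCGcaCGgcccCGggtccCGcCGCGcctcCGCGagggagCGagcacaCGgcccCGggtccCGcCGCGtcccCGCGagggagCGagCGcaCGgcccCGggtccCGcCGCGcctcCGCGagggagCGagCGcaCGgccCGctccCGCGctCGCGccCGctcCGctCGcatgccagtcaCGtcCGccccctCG

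The 3 windows differed widely in CpG number. The Tet2 window held 51, more than 99.9% of the 32851 RefSeq promoter windows of this length, whose median was 6. The Dnmt3b window held 21 CpG, more than 83.7% of windows. The Dnmt3l window held 5 CpG, near the median. The octamer ATGCAAAT, the DNA word of POU factors such as Pou5f1, was found on neither strand of any window of these genes, and 1.6% of all windows held it. Words of the kind bound by E2F factors, which control S phase genes (TTTGGCGC, TTTCCCGC, TTTCGCGC or TTTGCCGC on either strand, words that themselves contain CpG), were found in 1 Dnmt1 window and 1 Uhrf1 window, each time as TTTCGCGC on one of the strands, against 1.86% of all windows. A match of letters describes the window and does not show a bound site.

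Signals are given as log2 of the processed signal relative to the 75th percentile of the array (normalized log2 signal), so that values of 1 probe can be set against each other across arrays but not against those of another probe. Each array had 61.98% to 65.9% of its spots well above background and 0 saturated spots, and spots that repeat a probe had an SD of 0.0934 to 0.12 (log2). Both undifferentiated arrays were on a slide of their own and the other 4 arrays shared a second slide. Slide and state therefore cannot be told apart in any comparison with the undifferentiated state, while the lines can be compared within a slide in every state. A marker of the undifferentiated state and a neuronal marker went with the labels in both lines. Undifferentiated cells had Pou5f1, the pluripotency factor Oct4, at 6.48 (AICD) and 6.37 (vector). It read 3.23 in AICD and -2.36 in vector aggregates, and 3.26 in AICD and -0.61 in vector differentiated cells. Not every marker of that state fell so clearly. Dppa5a read -2.24 in AICD and -1.64 in vector undifferentiated cells, against -2.30 in AICD and -1.75 in vector differentiated cells. The neuronal tubulin Tubb3 stood at 5.29 in AICD and 5.89 in vector differentiated cells, against 2.53 in AICD and 2.51 in vector undifferentiated cells. Other markers differed between the lines. Of 6 neural progenitor markers, 2 were higher and 4 lower in AICD than in vector aggregates. Among the lower ones, Hes5 was at -5.59 in AICD aggregates, not well above background, and at 5.98 in vector aggregates.

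Differences between states, adjusted for the line, and the difference between lines over the 3 states were tested with limma across 13380 genes with Benjamini-Hochberg adjustment, calling a gene at adjusted p 0.05. The spread against which each estimate was set is the change of the line difference from state to state, because no group had a replicate. It was moderated by limma toward the spread of all genes. Of the 7 members, 4 were lower and 1 was higher in aggregated than in undifferentiated cells, where 26.1% of all genes were called lower and 14.8% higher (40.9% in all). Over the whole course, differentiated against undifferentiated, 5 members were lower and 1 was higher, where 40.4% of all genes were called lower and 20.3% higher (60.7% in all). With so many genes called, these counts do not set the enzymes apart from other genes. The median over all genes was itself -0.27 for aggregation and -0.42 for the whole course on the log2 scale. The aggregation calls of all 5 members were lost without either the AICD aggregated or the vector aggregated array (adjusted p at least 0.0902, 0 genes called on the whole array), and all 6 whole-course calls were lost without the vector differentiated array (adjusted p 0.0527 to 0.0909). Without the vector undifferentiated array, Dnmt3a and Tdg were not called at aggregation (adjusted p = 0.116 and 0.165), nor Uhrf1 and Tdg over the course (adjusted p = 0.0559 and 0.0655). The calls of Dnmt3a and Tdg at aggregation were also lost without either differentiated array (adjusted p = 0.0619 and 0.0661), that of Tdg without the AICD undifferentiated array (adjusted p = 0.0568), and that of Dnmt3a over the course without the AICD differentiated array (adjusted p = 0.0521). The sign of each of these differences was the same in both lines.

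**Figure D1:**
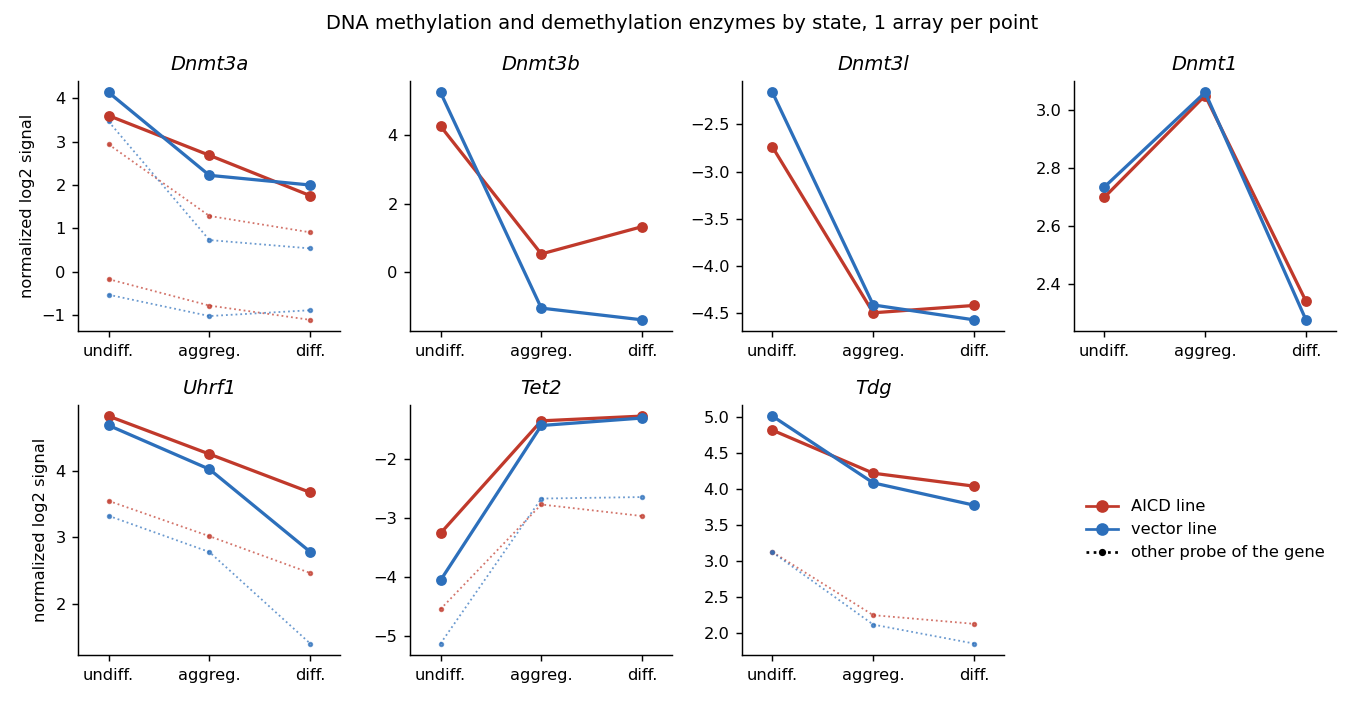
Normalized log2 signal of the 7 measured enzymes (y axis, a scale of its own in each panel) in the undifferentiated, aggregated and differentiated states (x axis), with the AICD line in red and the vector line in blue, 1 array per point. Thick lines are the probe used for the tests and dotted lines the other probes of the gene. Dnmt3b falls in both lines but ends at 1.33 in AICD and -1.40 in vector differentiated cells, while the Dnmt1 lines nearly coincide.

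Among the de novo enzymes, Dnmt3b showed the largest change of any member. Its normalized log2 signal was 4.27 in AICD and 5.26 in vector undifferentiated cells, 0.53 in AICD and -1.06 in vector aggregates, and 1.33 in AICD and -1.40 in vector differentiated cells. Both undifferentiated arrays lay far above the other 4. Aggregated minus undifferentiated cells gave an estimate of -5.03 ± 0.96 (log2, SE, 95% interval -7.69 to -2.38, limma adjusted p = 0.0259). The decrease was 13.4-fold in the AICD line and 80.0-fold in the vector line. Among 11480 genes above background on all 6 arrays, 0.348% were at least as much lower in the AICD line and 0.139% in the vector line. Genes that fell to background on any array are outside this set, so some large decreases may not be counted. From aggregated to differentiated cells Dnmt3b was 0.80 higher in the AICD line and differed by -0.34 in the vector line, and the estimate was 0.23 ± 0.96 (adjusted p = 0.885). The whole-course estimate was -4.81 ± 0.96 (adjusted p = 0.0175), with differentiated cells 7.71-fold lower than undifferentiated cells in the AICD line and 101.6-fold lower in the vector line. Its standard error was the largest of the 7 members, since its line difference changed most between states, and leaving out 1 array at a time moved the aggregation estimate between -6.61 and -3.46.

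Dnmt3a, the other de novo methyltransferase, also fell, but its probes gave different sizes. The probe used for the tests read 3.60 in AICD and 4.14 in vector undifferentiated cells, 2.68 in AICD and 2.22 in vector aggregates, and 1.75 in AICD and 2.00 in vector differentiated cells. Every later array was below both undifferentiated ones, and neither line was the lower in every state. The aggregation estimate was -1.42 ± 0.29 (adjusted p = 0.0302) and the whole-course estimate -1.99 ± 0.29 (adjusted p = 0.0100). When every probe was fitted as a row of its own, a second probe (accession NM_007872, where the first has NM_153743) gave -2.20 ± 0.32 (adjusted p = 0.0142) at aggregation and -2.48 ± 0.32 (adjusted p = 0.00646) over the course. The remaining probe, with the same accession as the second, gave -0.55 ± 0.21 (adjusted p = 0.0978) and -0.65 ± 0.21 (adjusted p = 0.0542), and did not pass in either comparison. All 3 probes were lower after aggregation in both lines. Where on the transcripts these probes lie is not given in the files, so the probes cannot be assigned to isoforms.

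Dnmt3l, the catalytically inactive cofactor, fell at aggregation in both lines. Its signal was -2.74 in AICD and -2.16 in vector undifferentiated cells, -4.50 in AICD and -4.42 in vector aggregates, and -4.42 in AICD and -4.57 in vector differentiated cells. The 4 later arrays lay close together, well below both undifferentiated arrays. The aggregation estimate was -2.01 ± 0.23 (adjusted p = 0.0139), 4.02-fold lower, and the whole-course estimate -2.05 ± 0.23 (adjusted p = 0.00789). With normexp background correction, whose added offset compresses dim signals, the aggregation estimate was -1.09 (adjusted p = 0.0136) and the whole-course estimate -1.24 (adjusted p = 0.00510).

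Of the maintenance pair, Dnmt1 and Uhrf1, the maintenance methyltransferase Dnmt1 had its highest signals in aggregates. It read 2.70 in AICD and 2.73 in vector undifferentiated cells, 3.05 in AICD and 3.06 in vector aggregates, and 2.34 in AICD and 2.28 in vector differentiated cells. In both lines the aggregate was highest and the differentiated cells lowest, and AICD minus vector was -0.04, -0.01 and 0.06 in the undifferentiated, aggregated and differentiated state. Aggregated against undifferentiated cells differed by 0.34 ± 0.14 (adjusted p = 0.127), which passed with quantile normalization (0.55, adjusted p = 0.0459). Differentiated against aggregated cells differed by -0.75 ± 0.14 (95% interval -1.15 to -0.35, adjusted p = 0.0776), where 0% of all genes were called, although 4395 had an unadjusted p under 0.05 and 1373 genes were called with normexp correction. With normexp Dnmt1 was called (-0.75, adjusted p = 0.0418). The whole-course difference of Dnmt1 was -0.41 ± 0.14 (adjusted p = 0.0709, and 0.0373 with normexp), close to the all-gene median of -0.42.

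Uhrf1, the factor that brings Dnmt1 to hemimethylated DNA, was lower at each step in both lines. It read 4.82 in AICD and 4.68 in vector undifferentiated cells, 4.25 in AICD and 4.02 in vector aggregates, and 3.68 in AICD and 2.78 in vector differentiated cells. The lines were close until replating, after which the vector line was the lower. Neither single step passed, with -0.61 ± 0.25 (adjusted p = 0.116) for aggregated against undifferentiated cells and -0.91 ± 0.25 (adjusted p = 0.105) for differentiated against aggregated cells. The whole-course estimate passed at -1.52 ± 0.25 (95% interval -2.21 to -0.83, adjusted p = 0.0119), 2.87-fold lower, and the second Uhrf1 probe gave -1.50 ± 0.28 (adjusted p = 0.0126). The decrease over the course was -1.14 in the AICD line and -1.90 in the vector line.

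On the side of removal, Tet2, the measured 5-methylcytosine dioxygenase, was called higher after aggregation and over the course. Its signal was -3.26 in AICD and -4.06 in vector undifferentiated cells, -1.34 in AICD and -1.42 in vector aggregates, and -1.26 in AICD and -1.30 in vector differentiated cells. The 4 later arrays lay close together and above both undifferentiated ones. Aggregated cells were higher by 2.27 ± 0.26 (95% interval 1.56 to 2.98, adjusted p = 0.0137), with a 3.77-fold rise in the AICD line and a 6.21-fold rise in the vector line. The second Tet2 probe gave 2.12 ± 0.27 (adjusted p = 0.0121). Between differentiated and aggregated cells the estimate was 0.10 ± 0.26 (adjusted p = 0.797). The size of the rise depended on the background correction, and normexp gave 1.36 at aggregation (adjusted p = 0.00649), the undifferentiated signals being dim. The whole-course estimate was 2.38 ± 0.26 (adjusted p = 0.00769, and 1.40 with normexp). With normexp the second Tet2 probe rose by less than 2-fold. At aggregation its rise was then 0.82 in the AICD line and 0.75 in the vector line, and over the course 0.67 and 0.77.

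Tdg, the glycosylase that follows oxidation, fell to a smaller extent. It read 4.82 in AICD and 5.01 in vector undifferentiated cells, 4.22 in AICD and 4.09 in vector aggregates, and 4.04 in AICD and 3.78 in vector differentiated cells. Both undifferentiated arrays were above the other 4. The aggregation estimate was -0.76 ± 0.18 (adjusted p = 0.0402) and the whole-course estimate -1.005 ± 0.18 (adjusted p = 0.0146). Quantile normalization, under which the all-gene median of the aggregation step was -0.12 in both lines, against -0.23 in the AICD line and -0.30 in the vector line in the main setting, ended both calls (-0.37, adjusted p = 0.127, and -0.41, adjusted p = 0.0876). The second Tdg probe gave -0.94 ± 0.16 at aggregation (adjusted p = 0.0186).

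**Figure D2:**
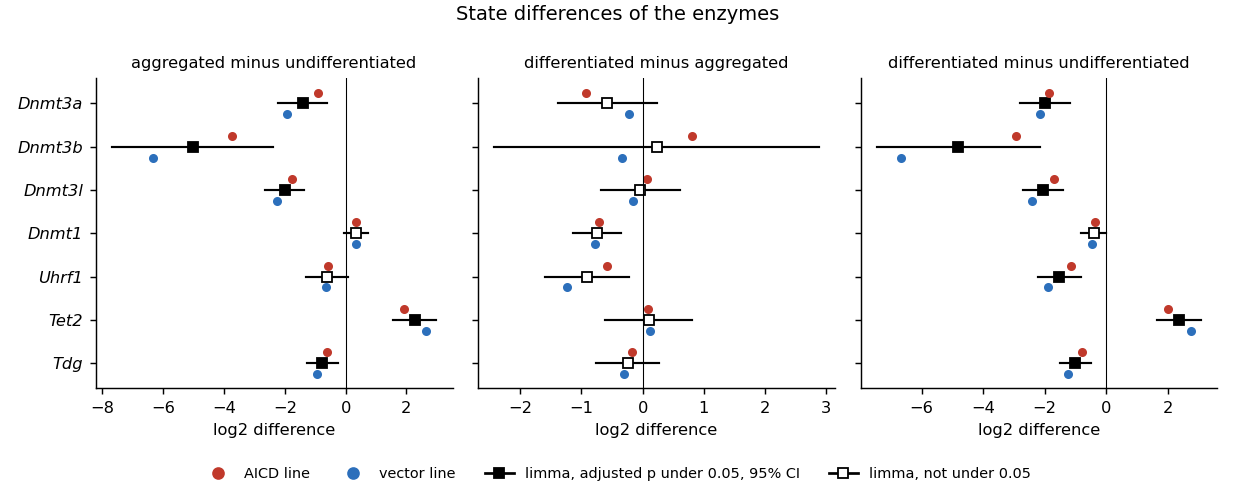
Log2 differences between states (x axis) for the 7 enzymes (y axis), with the limma estimate over both lines and its 95% interval in black (filled where adjusted p was under 0.05) and the difference within the AICD line (red, above) and within the vector line (blue, below), 1 array against 1. Dnmt3b at aggregation, -3.75 in the AICD line and -6.32 in the vector line, is the point farthest from 0 in the first panel.

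Counted by size within each line, at least 2-fold differences between aggregated and undifferentiated cells were found in 3 of 7 members in the AICD line, where 27.3% of all genes differed so far, and in 4 of 7 in the vector line, where 33.3% did. Between differentiated and aggregated cells, 0 of 7 members reached 2-fold in the AICD line (11.1% of all genes) and 1 of 7, Uhrf1, in the vector line (22.5% of all genes). Over the course, 5 of 7 did in the AICD line (37.4% of all genes) and 6 of 7 in the vector line (50.1% of all genes). In these 2-fold shares, all genes means those well above background on both arrays compared, 11868 to 12207 genes. RNA of whole cultures was measured, so fewer cells of one type and less RNA per cell cannot be told apart.

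No member was called for the line over the 3 states, where 0.351% of all genes were called (47 of 13380). The estimate, AICD minus vector, was 1.11 ± 0.78 for Dnmt3b (95% interval -1.05 to 3.28, adjusted p = 0.639) and 0.42 ± 0.20 for Uhrf1 (95% interval -0.14 to 0.98, adjusted p = 0.499). For Tet2 it was 0.30 ± 0.21 (95% interval -0.28 to 0.88, adjusted p = 0.631). The narrowest interval was that of Dnmt1, -0.32 to 0.33 around 0.01, so a line difference of Dnmt1 beyond 1.26-fold in either direction lay outside it. Intervals of Dnmt3a (-0.77 to 0.55), Dnmt3l (-0.70 to 0.36) and Tdg (-0.35 to 0.48) also included 0.

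Within single states, by the probe used for the tests, Dnmt3b was the 1 member of 7 at least 2-fold apart between the lines, in the aggregated and the differentiated state, where 7.33% and 8.53% of all genes were that far apart. In undifferentiated cells, where 8.35% of all genes were, no member reached that size, and Dnmt3b lay just inside it. These shares too are of the genes well above background on both arrays compared, 11989 to 12554 genes. AICD minus vector was -0.99 for Dnmt3b in undifferentiated cells, 1.59 (3.01-fold higher) in aggregates and 2.73 (6.64-fold higher) in differentiated cells. Among the 11480 genes above background on all arrays, 0.47% exceeded the vector line by as much in differentiated cells. The 2 later comparisons were made within 1 slide, and the fit on the 4 arrays of that slide gave 2.16 without a call. With 1 array per group these single-state differences have no test.

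The other members differed less between the lines. Uhrf1 was 0.14, 0.23 and 0.89 higher in the AICD line in the undifferentiated, aggregated and differentiated state, and its second probe gave 0.22, 0.24 and 1.06, the last just past 2-fold. Tet2 was 0.80 higher in AICD undifferentiated cells and 0.08 and 0.03 higher in AICD aggregates and differentiated cells. Its undifferentiated difference was 0.22 with normexp correction, and the second probe gave 0.59, or -0.08 with normexp. Dnmt3a differed by -0.54, 0.46 and -0.25 in the 3 states, and its direction depended on the probe. The second probe gave -0.53, 0.56 and 0.37, and the remaining one 0.36, 0.24 and -0.22. Dnmt3l differed by -0.58 in undifferentiated cells, while Tdg differed by -0.19, 0.13 and 0.26 in the 3 states.

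**Figure D3:**
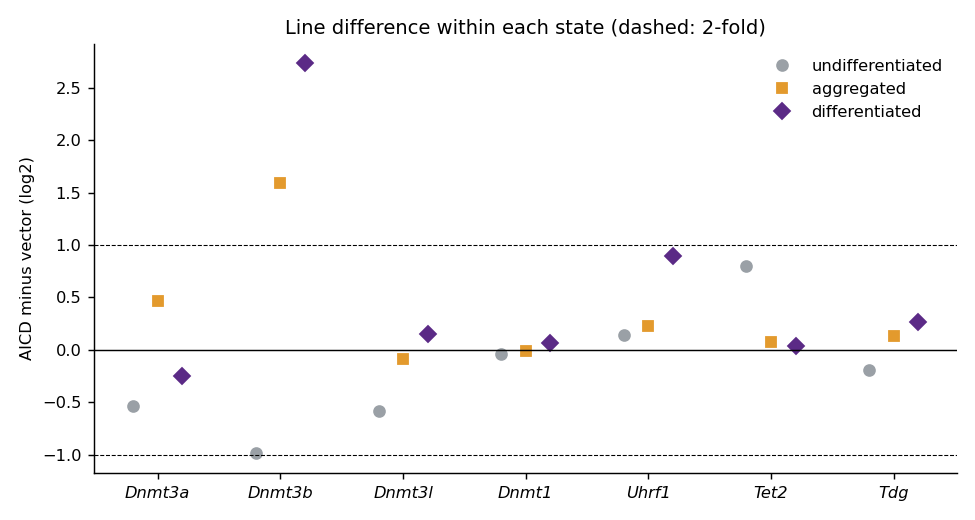
AICD minus vector difference in normalized log2 signal (y axis) of the 7 enzymes (x axis) in undifferentiated (grey circles), aggregated (orange squares) and differentiated cells (purple diamonds), 1 array against 1, with dashed lines at 2-fold. Dnmt3b runs from -0.99 in undifferentiated to 2.73 in differentiated cells, Uhrf1 reaches 0.89, and Tet2 is at 0.80 in undifferentiated cells, or 0.22 with normexp correction.

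Markers of cell states also differed between the lines. The summed signal of 7 measured markers of undifferentiated embryonal carcinoma cells, in units of each array's 75th percentile, was 118.8 in AICD and 127.7 in vector undifferentiated cells, 17.82 in AICD and 11.58 in vector aggregates, and 17.7 in AICD and 5.085 in vector differentiated cells. In aggregates the difference in this sum goes with Pou5f1 (3.23 in AICD and -2.36 in vector aggregates), since AICD minus vector was positive for 3 of the 7 and negative for 4, with a median of -0.03. In differentiated cells 6 of 7 were higher in the AICD line, with a median of 0.88. Pou5f1 was 3.26 in AICD and -0.61 in vector differentiated cells, and Lin28a, an RNA-binding protein of stem cells, was 1.04 in AICD and -2.03 in vector differentiated cells. Utf1, another marker of the undifferentiated state, was as low as -2.81 in AICD and -3.36 in vector differentiated cells. The summed signal of 6 markers of fibroblasts and mesenchyme was 0.1608 in AICD and 19.02 in vector differentiated cells, with 3 and 6 of them above background. The summed signal of 9 neuron markers was 78.73 in AICD and 50.83 in vector aggregates, with 8 of 9 higher in the AICD line (median 0.69), and 145.6 in AICD and 196.3 in vector differentiated cells, with 9 of 9 lower (median -0.37). The part of such cell states in the Dnmt3b and Uhrf1 differences was not tested.

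Genes of S phase and division, which dividing cells express together with Uhrf1 and Dnmt1, also stood higher in AICD differentiated cells. Of 14 measured, 13 were higher in the AICD than in the vector line in that state, with a median of 0.47 against 0.01 over all genes, while the medians were 0.15 in undifferentiated and 0.04 in aggregated cells. Mcm3, a subunit of the replicative helicase, differed by 0.999, and Ccnb1, the cyclin of mitotic entry, by -0.05. None of the 14 was called over the 3 states. Over the whole course 13 of 14 were called lower and 0 higher, where 40.4% of all genes were called lower and 20.3% higher. The lower ones included Mcm5 (-1.98), Cdk1 (-1.86), Ccnb1 (-1.82) and Mcm3 (-1.80), and the list median was -1.37 against -0.42 over all genes. At aggregation only Mcm2 of this list was called (-0.86), where 26.1% of all genes were called lower. There 13 of the 14 estimates were negative, while that of Uhrf1 was -0.61 and that of Dnmt1 0.34. In differentiated cells AICD minus vector was 0.89 for Uhrf1 and 0.06 for Dnmt1. For Uhrf1 and Dnmt1 the part of cell division was not tested.

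**Figure D4:**
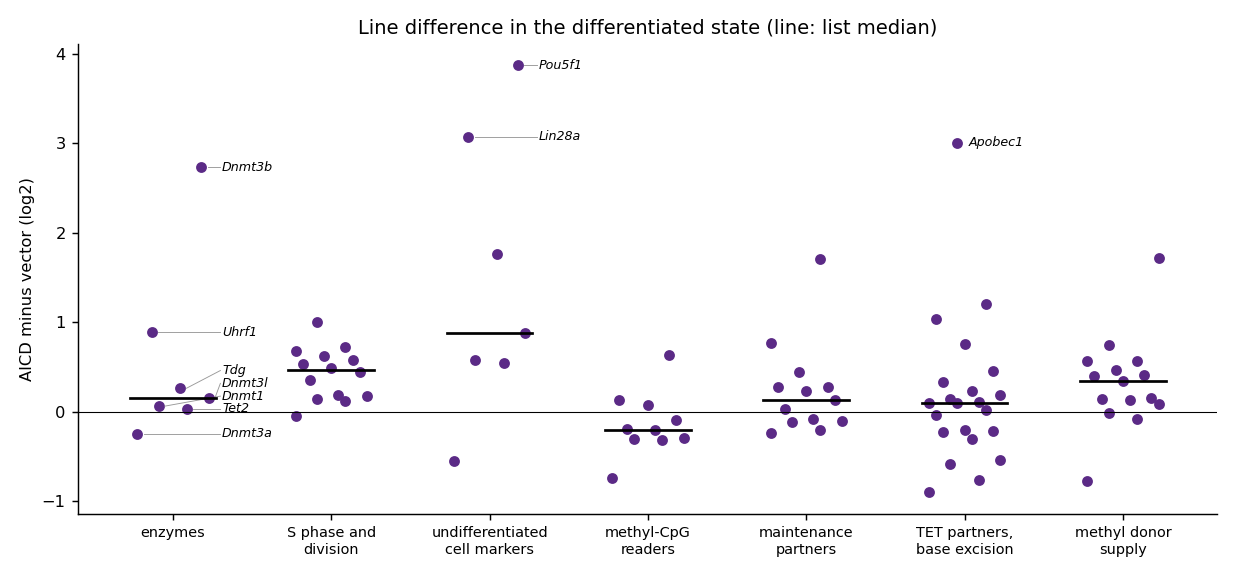
AICD minus vector difference in normalized log2 signal in differentiated cells (y axis) for the enzymes and 6 related gene lists (x axis), 1 point per gene, 1 array against 1, with the list median as a black bar. Dnmt3b (2.73) is the highest of the enzymes and lies below Pou5f1 (3.87) and Lin28a (3.07), the median of the undifferentiated cell markers is 0.88, and the S phase list has a median of 0.47.

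Partners of the enzymes were described list by list over the same comparisons; Pcna and Tyms stand in a partner list and in the S phase list. No gene of the partner lists was called between the lines over the 3 states. Methyl-CpG readers, the proteins that bind methylated DNA, had more genes called higher than lower. At aggregation 3 of 10 were called higher, among them Zbtb4 (1.17) and Mbd1 (1.05), and 1 lower, Mbd5, which was not well above background in aggregates (at least 1.59-fold lower). Over the course 5 of 10 were called higher and 1 lower, while 5 estimates were positive and 5 negative. The higher ones included Zbtb4 (2.76), Mbd1 (1.29) and also Mbd5 (1.02), which was dim in undifferentiated cells (-5.04 in AICD and -5.23 in vector). The list median was 0.42 against -0.42 over all genes. The shares of all genes called were 14.8% higher and 26.1% lower at aggregation, and 20.3% higher and 40.4% lower over the course.

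Of 13 maintenance and recruitment partners, 4 were called lower and 0 higher at aggregation, and 7 lower and 1 higher over the course. The shares of all genes were 26.1% lower and 14.8% higher at aggregation, and 40.4% lower and 20.3% higher over the course. Dppa3, an inhibitor of Uhrf1 in germ cells and early embryos, was at least 2.76-fold lower in aggregates and at least 3.04-fold lower in differentiated cells, where it was not well above background. Hells, the remodelling ATPase needed for methylation of repeats, fell by 1.12 at aggregation and by 2.16 over the course on the log2 scale, and its partner Cdca7 fell by 0.67 at aggregation. Trim28, the corepressor recruited by zinc finger proteins, fell by 0.73 at aggregation. Cdca7l fell by 2.07 over the course. Zfp57, which keeps methylation at imprinted regions, rose by 1.90 over the course. The list median over the course was -0.74, against -0.42 over all genes.

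Tet partners, deaminases and base excision repair genes went both ways. Of 22 measured, 4 were called higher and 4 lower at aggregation, and 4 higher and 12 lower over the course, with a whole-course median of -0.73, against -0.42 over all genes. Of all genes, 14.8% were called higher and 26.1% lower at aggregation, and 20.3% and 40.4% over the course. Smug1, a uracil DNA glycosylase, rose by 3.39 and the cytidine deaminase Apobec1 fell by 3.50 at aggregation (log2). The estimate of Smug1 for differentiated minus aggregated cells was -2.58, which was not called. Gadd45g, a stress-response gene expressed in early neural differentiation, rose by 2.76 at aggregation and by 2.57 over the course. Over the course Ung, the main uracil glycosylase, fell by 2.67 and Gadd45b fell by 2.50. Apobec1 was 3.01 higher in AICD than in vector differentiated cells, and its estimate over the 3 states was 2.05 ± 0.70 (adjusted p = 0.381).

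Genes of methyl donor supply, the folate and methionine cycles that provide S-adenosylmethionine, had more genes called lower than higher, as was so over all genes. Of 15 measured, 5 were called lower and 0 higher at aggregation, and 10 lower and 1 higher over the course, with a whole-course median of -1.29, against -0.42 over all genes. Of all genes, 26.1% were called lower and 14.8% higher at aggregation, and 40.4% lower and 20.3% higher over the course. Mthfd1, a folate cycle enzyme, fell by 2.58 at aggregation and by 3.28 over the course. Cbs, which draws homocysteine out of the cycle, fell by 1.84 at aggregation, Mtrr, which reactivates methionine synthase, by 1.51, and Mat2a, which makes S-adenosylmethionine, by 0.96. Shmt1, a serine hydroxymethyltransferase, fell by 2.60 over the course.

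**Figure D5:**
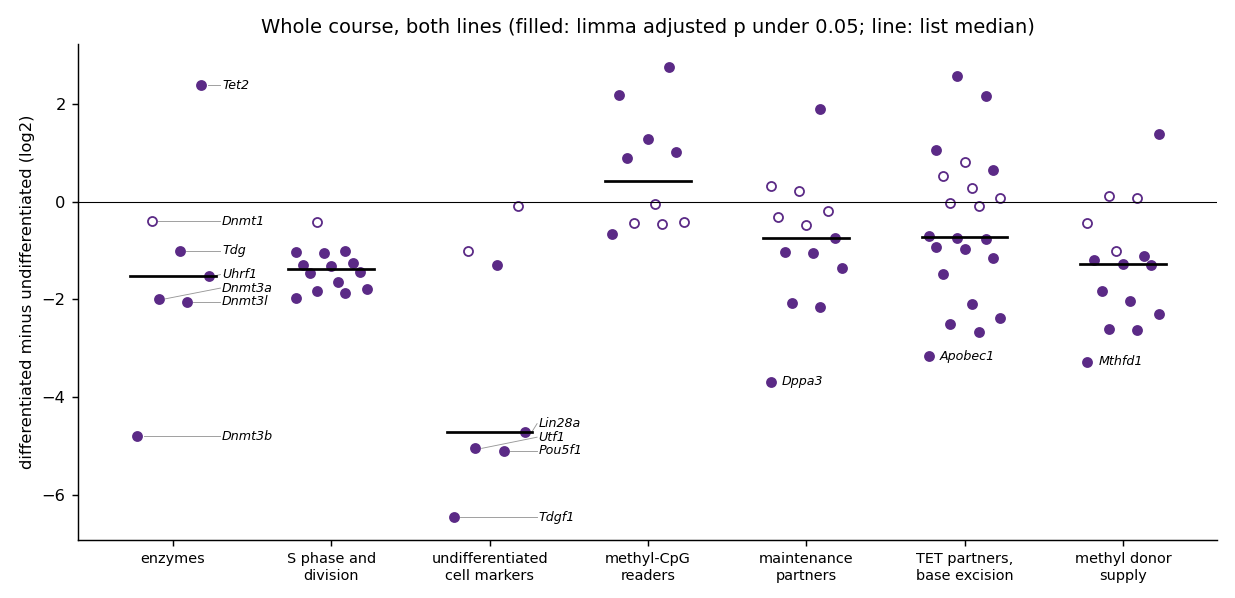
Limma estimate of differentiated minus undifferentiated cells over both lines (y axis, log2) for the enzymes and 6 related gene lists (x axis), 1 point per gene, filled where adjusted p was under 0.05, with the list median as a black bar. Of the enzymes, Tet2 (2.38) lies above 0 and Dnmt3b (-4.81) lowest. In the S phase list 13 of 14 genes are filled and below 0, where 40.4% of all genes were called lower. Genes not well above background in a state, such as Dppa3, are drawn at their fitted value.

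The genes whose 6 signals ran most like those of a member are named as a description over 6 arrays that share slides and scaling, among about 7511 genes above background on all arrays with a range of at least 1 on the log2 scale. For Dnmt3l these were Utf1 (Pearson r 0.9995), Irak1bp1 (0.998) and Hif3a (0.998). For Dnmt3b they were Rbpms2 (0.995), Acbd4 (0.993) and Olfr1411 (0.993), and Rbpms2, an RNA-binding protein gene, shared the higher level in the AICD line, with 3.52 in AICD and 0.65 in vector differentiated cells. For Uhrf1 they were Mcm4 (0.998), a helicase subunit of the S phase list, Slc25a13 (0.997) and Lpl (0.997). Dnmt1 ran most like Bcar3 (0.996), Socs7 (0.994) and the proneural factor Neurog1 (0.991), all with their highest values in aggregates. All genes named here were chosen by likeness over the same 6 arrays, so the levels they share with a member follow from the choice. Tet2 was closest to Nck2 (0.999), Ptpra (0.999) and Adcy6 (0.999), Dnmt3a to Calm3 (0.998), Hsd11b1 (0.996) and Vkorc1 (0.996), and Tdg to Rbm8a (0.999), Ppil1 (0.999) and Naa15 (0.999).

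The authors' deposited table gives for each probe a value relative to its median over the 6 arrays and leaves sizes under 1 blank. Read as log2, the authors' deposited table has Dnmt3b at 3.35 in AICD and 4.33 in vector undifferentiated cells, at -1.99 in vector aggregates and at -2.33 in vector differentiated cells, and blank in both later AICD states. It lists Tet2 at -1.87 in AICD and -2.67 in vector undifferentiated cells. In the authors' deposited table Uhrf1 is listed only in vector differentiated cells, at -1.35, and Dnmt1 and Tdg are blank throughout.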

How the data were processed

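RNA of 6 samples was hybridised to 1-colour (Cy3) Agilent arrays. Per the file headers, scanning output came from Agilent Feature Extraction 10.1.1.1. The deposited processed signal used here is an intensity that the software had corrected for background, and arrays were not scaled to each other. The authors' deposited value column is a score. By comparison with the processed signals, each entry is a log2 value centred on the 75th percentile of its array and then on the probe's own median; negative entries appear as the reciprocal of their size, and sizes under 1 are blank. Between 99.81% and 99.89% of listed entries matched this reading within 0.05, and the median entry of an array was 0.967 to 1.23. Scale and centring were thus found from the data.

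Outlier-flagged spots were dropped, spots of a probe were averaged, and log2 minus the array's 75th percentile was taken. Of 41174 probes, 24844 received a symbol through their RefSeq accession in a GRCm38.p6 annotation. Probes well above background on at least 2 arrays were kept (28457), and the probe with the highest mean stood for a gene (13380 genes). limma 3.58.1 in R 4.3.3 (package data.table, version 1.17.8) fitted state and line (2 residual and 2.04 prior degrees of freedom), two-sided, at adjusted p 0.05. Tables and figures used Python 3.11.15 with pandas 2.3.3, numpy 2.4.6 and matplotlib 3.10.9. The fit was tested on simulated data. Each p-value sets an estimate against the change of the line difference between states, which may be technical. This spread was moderated by limma toward that of all genes. Precision is limited by the number of arrays. A fold with a group not well above background is a bound against the lowest signal above background. The array design names mm9, while coordinates are those of the RefSeq promoter sequences (GRCm38.p6).

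The members and gene lists were chosen with earlier results of these data known. By the naming rule, all members and all their probes, up to 4 called genes of a list (otherwise up to 2) and the 3 genes most like each member are named. Some genes that the rule names are not reported here. Pou5f1, Lin28a, Utf1 and Tubb3 were picked among the cell type markers after their values were seen. Alternatives were normexp correction (offset 50, on median and background signals, as the mean signal is not used here), quantile normalization, other filters and probe rules, each array left out, and the 4 arrays of 1 slide.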

Additional observations from a re-analysis of the deposited data

Results flagged for a closer look

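Some line differences ran in opposite directions in different states by more than 0.339 on either side (a size set from the spread of repeated spots of a probe); none of these contrasts was tested, since each rests on 1 array per group. The AICD minus vector difference of Dnmt3b was 1.59 in aggregates and -0.99 in undifferentiated cells, a contrast of 2.58. It was 2.73 in differentiated and -0.99 in undifferentiated cells, a contrast of 3.72. For Dnmt3a it was 0.46 in aggregates and -0.54 in undifferentiated cells, a contrast of 0.9983. The Dnmt3a probe with the smallest state differences gave 0.24 in aggregates and 0.36 in undifferentiated cells, the same direction in both. From aggregated to differentiated cells Dnmt3b differed by 0.80 in the AICD line and by -0.34 in the vector line, a contrast of 1.14.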

How the results depend on the processing

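The replating step called 0 genes, 1373 with normexp background correction and 693 when genes had to be above background on all 6 arrays. The line over the 3 states called 47 genes, 0 with no filter on dim probes (1844 at an unadjusted p under 0.05) and 84 within the slide of 4 arrays. Leaving out 1 array at a time gave 0 to 84 genes for the line, 0 to 3990 for aggregation, 0 for replating and 874 to 6550 for the whole course; the fit then has fewer samples, and the lone array of a state is assumed to vary like the others. Among the tested estimates, signs turned only in ones that were never called. The line estimate of Dnmt3a was 0.0513 with the mean of its probes, 0.11 within the slide and 0.13 for either other probe, and -0.39 to 0.11 over arrays left out; that of Dnmt3l was 0.0347 within the slide and -0.3311 to 0.0347 over arrays left out. Over arrays left out, the line estimate of Dnmt1 ran from -0.0231 to 0.0268 and that of Tdg from -0.0303 to 0.1988, and the replating estimates ran from -0.99 to 1.44 for Dnmt3b, -0.28 to 0.20 for Dnmt3l and -0.10 to 0.31 for Tet2, whose second probe gave -0.0854. The cause of these turns was not tested. No member was called for the line under any alternative. The fit set states against each other within each line, and lines against each other within each state. Pairing by replicate was not possible because each line and state has 1 array and the labels give no replicate numbers. Dim signals limit the sizes for Dnmt3l and Tet2.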
